A study of Mus musculus with 44 samples.

Results

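The mRNA levels of Kdm5a, Kdm5b, Kdm5c and Jarid2 were followed in the dorsal hippocampus of mice that carry a Kdm5b mutation and in wild-type (WT) mice of the same cross. The 4 genes were taken by symbol from the 27179 genes counted in each library, and all 4 passed the filter on low counts in every comparison. RNA was sequenced from 36 mice 7 to 8 weeks old, 1 library each. There were 6 WT and 6 homozygous mutant mice, 3 labelled male and 3 labelled female, in each of 3 states. The states were naive from the home cage (0 h), 1 h after contextual fear conditioning (CFC, in which a mouse learns to link a chamber with foot shocks) and 3 h after it. The mutants are homozygous for the Kdm5b ΔARID allele (Kdm5bΔ/Δ), a constitutive deletion of exons 2 to 4 that is carried by every cell and leaves a shorter protein. All mice were F2 animals from C57BL/6J males with the mutant allele and 129S2/Sv females, so the mutants also carry the stretch of chromosome 1 around Kdm5b that came with the allele. The effect of the allele and that of the linked stretch cannot be told apart. Library totals ran from 40274435 to 107000233 counts. The question was whether the related genes rise where Kdm5b is mutated.

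KDM5 proteins remove methyl groups from di- and trimethylated lysine 4 of histone H3 (H3K4), a mark of active promoters. They do so through a catalytic JmjC domain that works together with a JmjN domain, and an ARID domain that binds DNA lies next to it. Kdm5a and Kdm5b lie on autosomes, Kdm5c lies on the X chromosome and is known to escape X inactivation in part, and Kdm5d is its counterpart on the Y chromosome. KDM5C is an X-linked intellectual disability gene in humans, and KDM5B has been linked to a recessive form. Jarid2 belongs to the same JARID family by its JmjN, ARID and JmjC domains, but its protein lacks demethylase activity and acts in Polycomb repressive complex 2 (PRC2), which methylates lysine 27 of histone H3.

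In the mm10 build (GRCm38), Kdm5a lies on chromosome 6 (chr6:120364099-120444574), Kdm5b on chromosome 1 (chr1:134560178-134632878), Kdm5c on the X chromosome (chrX:152233198-152279102) and Jarid2 on chromosome 13 (chr13:44730774-44921643), all on the plus strand and with RefSeq gene limits. The coding sequences of the GENCODE transcripts used here span 1690, 1544, 1551 and 1234 codons in that order. Kdm5a shares 271 bases with Ccdc77 and 106 with Gm24592, a small nuclear RNA gene, and Kdm5b shares 1569 bases with Mgat4e. Reads in these stretches may be split between genes or lost. Ccdc77 was expressed, with 199 to 529 counts per library. Mgat4e was all but silent, with a mean CPM (the count scaled to a fixed library total, with TMM, the trimmed mean of M values, as scaling factor) of 0.0389 over the 36 libraries.

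The mutation itself is in the 3 Kdm5b exons below, shown because their loss is the only labelled difference between the genotypes and because it bears on how many reads the gene can collect. They are exons 2, 3 and 4 of the GENCODE transcript in the mm10 build, at chr1:134585154-134585231, chr1:134587922-134588044 and chr1:134588777-134588947 on the plus strand, 5′ to 3′. Capitals mark the deleted bases, and 15 bases of exon 1 and of exon 5 are given in lower case at either end.
Kdm5b exon 2: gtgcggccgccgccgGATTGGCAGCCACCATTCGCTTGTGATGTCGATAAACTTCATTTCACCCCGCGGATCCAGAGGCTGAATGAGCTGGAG
Kdm5b exon 3: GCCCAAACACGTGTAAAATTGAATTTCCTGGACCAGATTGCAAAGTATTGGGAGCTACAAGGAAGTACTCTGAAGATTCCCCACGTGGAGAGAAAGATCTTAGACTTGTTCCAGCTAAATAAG
Kdm5b exon 4: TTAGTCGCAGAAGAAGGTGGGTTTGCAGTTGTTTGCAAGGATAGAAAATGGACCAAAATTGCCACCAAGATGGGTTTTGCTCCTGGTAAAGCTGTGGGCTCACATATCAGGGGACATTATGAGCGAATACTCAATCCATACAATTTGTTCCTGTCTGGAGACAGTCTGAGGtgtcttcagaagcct
Together they hold 372 coding bases, coding positions 205 to 576, or 124 codons. The number divides by 3, so that joining exon 1 to exon 5 keeps the reading frame. The join that follows from this, with exon 5 in capitals, is a reading of the annotation and not of the reads.
Kdm5b exon 1 joined to exon 5: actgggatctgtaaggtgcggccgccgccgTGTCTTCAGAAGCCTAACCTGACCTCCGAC
The deleted bases are 4.27% of the 8714 bases of the GENCODE transcript, or 5.9% of the 6300 bases of it that lie within the RefSeq gene limits. If reads covered the transcript evenly, their loss alone would move the gene's count by a log2 of -0.063 or -0.088. Against all 14141 exon bases of the gene within the RefSeq limits, which pool its transcripts, the share is 2.63% and the log2 value -0.039.

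In 2 of the 36 libraries the sex-linked transcripts contradict the label. The library labelled WT, 1 h, male replicate 1 had no reads of Y-linked Kdm5d, and the library labelled mutant, 3 h, female replicate 2 had 33.2 CPM of it. Both were kept under their labels. Whether the genotype and time labels of these 2 libraries hold was not tested. Values without them are given for the main comparisons that they move.

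All 4 genes were well expressed in dorsal hippocampus. Levels between genes were compared per length, as TMM-scaled CPM divided by kilobases (kb). Per kb of all exon bases within the RefSeq limits, Kdm5c was highest at 12.3 ± 1.48 CPM per kb (SD, n = 36), followed by Kdm5b at 6.10 ± 0.355, Kdm5a at 4.90 ± 0.260 and Jarid2 at 4.62 ± 0.231. On this scale Kdm5c was above Kdm5b and Kdm5b above Kdm5a in all 36 libraries. Kdm5a was above Jarid2 in 30 of 36, so these neighbours overlapped on this scale. Per kb of coding length the means were 18.6 ± 1.08 for Kdm5b, 18.3 ± 2.20 for Kdm5c, 13.7 ± 0.727 for Kdm5a and 11.6 ± 0.578 for Jarid2. The order of Kdm5b and Kdm5c therefore depended on the length used, and by coding length Kdm5b was the higher in only 20 of 36 libraries. On that scale Kdm5a was above Jarid2 in 35 of 36.

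**Figure D1:**
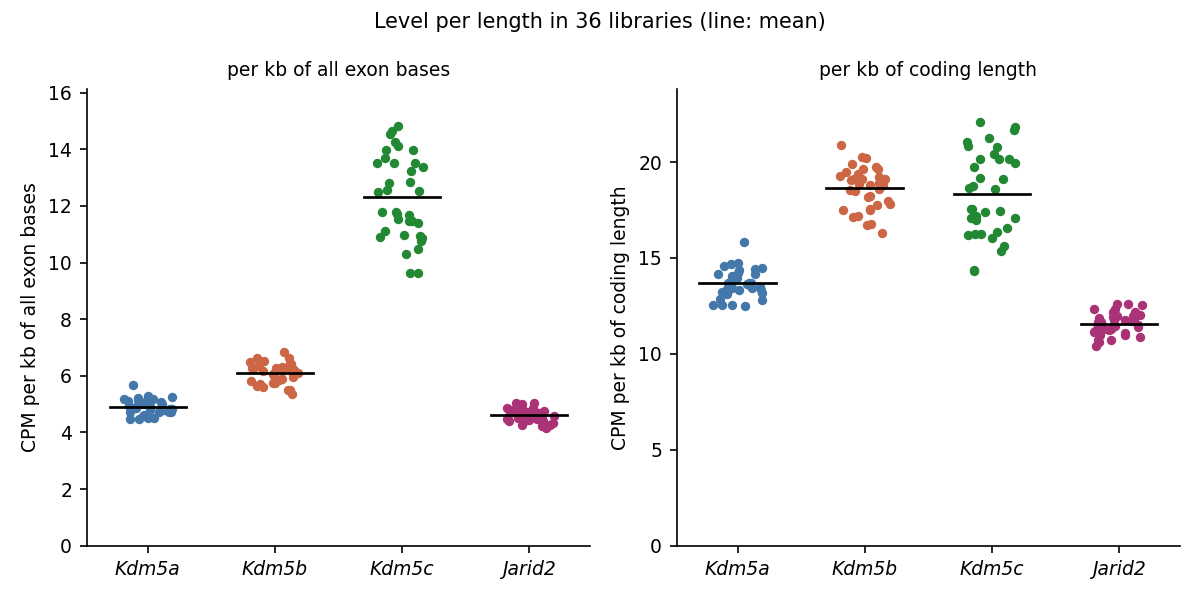
TMM-scaled CPM of the 4 genes per kb of all exon bases within the RefSeq limits (left) and per kb of coding length (right). Points are the 36 libraries and lines their means. Kdm5c stands above Kdm5b in all 36 libraries on the left and overlaps with it on the right, and Jarid2 is lowest on both.

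Of the 3 KDM5 genes common to both sexes, Kdm5c made up the largest share per kb of exon, 52.9% ± 2.75 in the 18 WT and 52.4% ± 3.13 in the 18 mutant libraries (SD). Kdm5b made up 26.6% ± 1.54 in WT and 26.0% ± 1.76 in mutants, and Kdm5a 20.6% ± 1.49 and 21.6% ± 1.61. The genotype means of each share differed by less than 1 SD.

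Kdm5b, the mutated gene, had a slightly lower mean in Kdm5bΔ/Δ hippocampus at each time. In WT mice the lowest, median and highest levels of the 6 libraries were 82.3, 87.2 and 89.2 CPM at 0 h, 79.6, 91.0 and 96.8 CPM at 1 h, and 87.1, 88.8 and 92.1 CPM at 3 h. In mutants they were 75.6, 80.3 and 86.6 CPM at 0 h, 81.2, 87.4 and 90.3 CPM at 1 h, and 77.6, 83.9 and 93.6 CPM at 3 h. The groups overlapped at every time, but all 6 mutants at 0 h, all 6 at 1 h and 5 of 6 at 3 h lay below the WT median. At 0 h 4 of 6 mutants and at 3 h 5 of 6 lay below the lowest WT library, and at 1 h none did. The count at 1 h rests on WT, 1 h, male replicate 1, without which the lowest WT library had 89.8 CPM and 5 of 6 mutants lay below it. The transcript was still read at 75.6 CPM or more in every mutant library.

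Over all times, with sex and time in the model, Kdm5b differed by -5.66% in mutants (log2 fold change -0.084, SE 0.023, 95% confidence interval -0.130 to -0.038). edgeR's quasi-likelihood test with Benjamini-Hochberg adjustment gave an adjusted p of 0.0494 in 36 libraries, just past the threshold of 0.05. In this comparison 1.35% of the 17978 genes tested were called, 158 higher and 85 lower. The interval holds the values computed above for the lost bases of the single transcript under even coverage, the value over all exon bases lies at its upper edge, and the part of the deletion in the gene's count was not tested. When single libraries were left out, the call was kept in 6 of 36 fits, with adjusted p from 0.0119 to 0.0881 and a log2 fold change between -0.093 and -0.074. In 8 other settings, described in the closing section, the call was kept in 4, with adjusted p from 0.00204 to 0.0780 (edgeR or DESeq2).

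Both libraries with contradictory sex-linked transcripts were extreme for Kdm5b. The one labelled WT, 1 h, male replicate 1 had 79.6 CPM, the lowest of the 18 WT libraries, and the other 17 ran from 82.3 to 96.8 CPM. The one labelled mutant, 3 h, female replicate 2 had 93.6 CPM, the highest of the 18 mutant libraries, and the other 17 ran from 75.6 to 90.3 CPM. Without both, the Kdm5b difference over all times was -0.103 (SE 0.020, adjusted p = 0.00204, edgeR).

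At single times the Kdm5b difference was not called. The log2 fold change was -0.108 (SE 0.039) at 0 h, with an unadjusted p of 0.0151 and an adjusted p of 0.759 by edgeR. At 1 h it was -0.064 (SE 0.046, adjusted p = 0.736, edgeR), and -0.101 (SE 0.036, adjusted p = 0.336, edgeR) without the library labelled WT, 1 h, male replicate 1. Without WT, 1 h, male replicate 3 it was smaller, at -0.039, and without mutant, 1 h, female replicate 3 it was -0.043. At 3 h it was -0.081 (SE 0.041, adjusted p = 0.809, edgeR). Few genes were called at all: edgeR called 0% of 17761 genes at 0 h, 0% of 17679 at 1 h and 0.0112% of 17788 at 3 h, which is 2 genes. Without the library labelled WT, 1 h, male replicate 1 it called 43 genes at 1 h, 37 higher and 6 lower, and without the one labelled mutant, 3 h, female replicate 2 it called 17 at 3 h. Without adjustment 1091, 1503 and 1119 genes had p under 0.05 at 0, 1 and 3 h, and DESeq2 called 16, 98 and 50 genes.

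**Figure D2:**
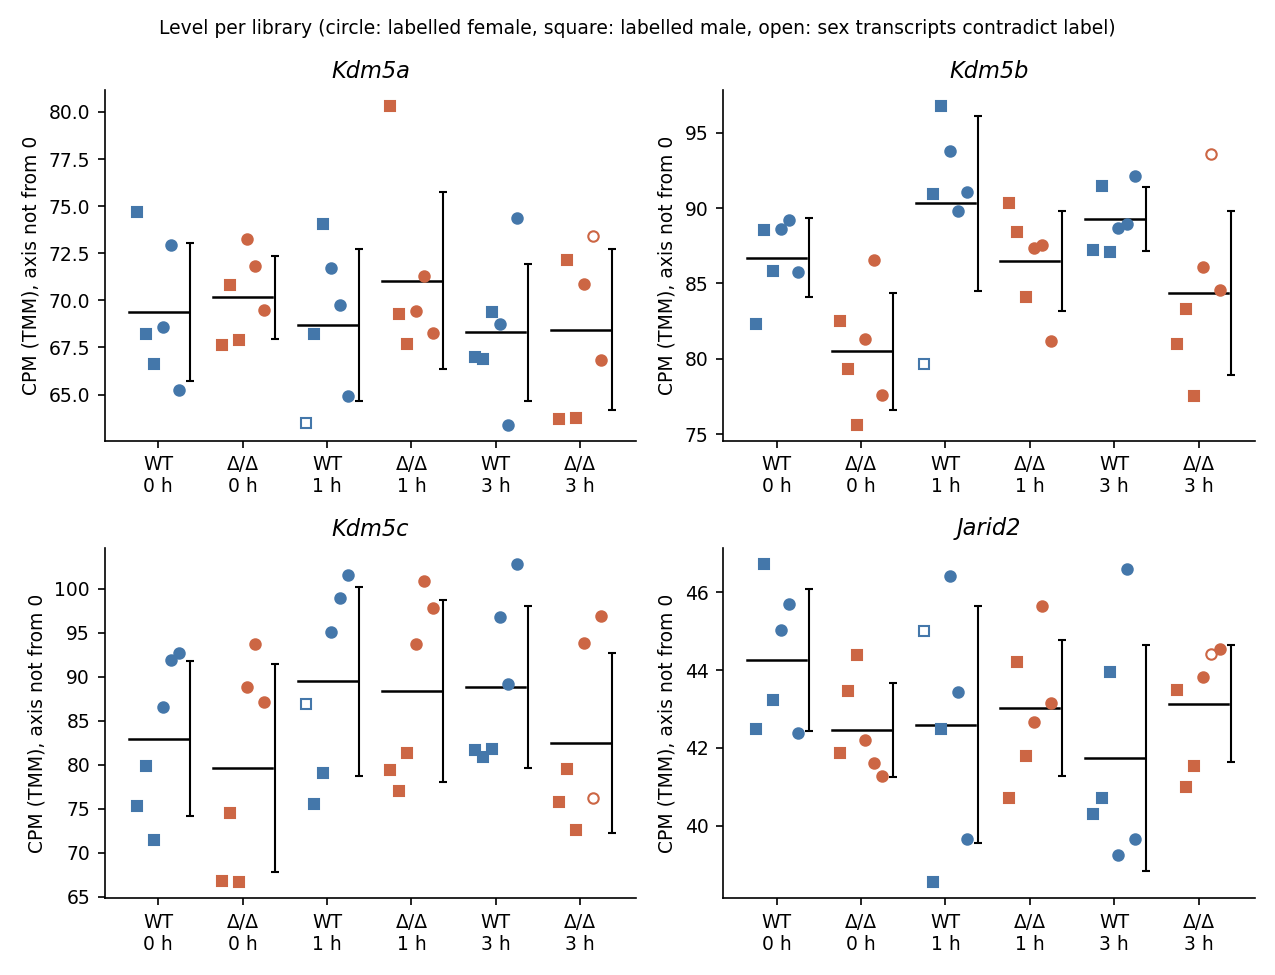
TMM-scaled CPM (vertical axes, not from 0) of the 4 genes by genotype and time. Circles are libraries labelled female, squares male, open symbols the 2 libraries whose sex-linked transcripts contradict the label, lines the mean and bars 1 SD of 6 libraries. Mutant Kdm5b means lie below WT at each time, and Kdm5c splits into a female-labelled and a male-labelled set but for the open symbols.

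Neither Kdm5a, Kdm5c nor Jarid2 was called higher where Kdm5b was mutated, and Kdm5d was not tested by genotype. Kdm5a, the other autosomal KDM5 gene, differed by a log2 of 0.022 over all times (SE 0.026, adjusted p = 0.749, edgeR), or 1.56%, with a 95% interval from -2.12% to 5.38%. In WT mice its lowest, median and highest levels were 65.3, 68.4 and 74.7 CPM at 0 h, 63.5, 69.0 and 74.1 CPM at 1 h, and 63.4, 67.9 and 74.4 CPM at 3 h. In mutants they were 67.6, 70.2 and 73.3 CPM at 0 h, 67.7, 69.4 and 80.3 CPM at 1 h, and 63.7, 68.9 and 73.4 CPM at 3 h. The ranges overlapped at each time, and a single mutant at 1 h, male replicate 1 at 80.3 CPM, lay above the highest WT library of its time. The log2 difference at 0, 1 and 3 h was 0.015, 0.047 and 0.0049, each smaller than its SE of 0.043, 0.051 and 0.050. Without that mutant library the value at 1 h was 0.0090, and without WT, 1 h, male replicate 1 it was 0.021.

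Kdm5c, the X-linked paralog, had a lower mean in mutants at each time. Its log2 fold change over all times was -0.063 (SE 0.027), or -4.29% with a 95% interval that runs from -7.90% to -0.540%, but with an unadjusted p of 0.0265 and an adjusted p of 0.246 it was not called by edgeR. The log2 difference came to -0.066, -0.019 and -0.106 for 0, 1 and 3 h, with SE of 0.046, 0.039 and 0.055 and adjusted p of 0.877, 0.937 and 0.814 by edgeR. In WT mice its lowest, median and highest levels were 71.5, 83.2 and 92.7 CPM at 0 h, 75.5, 91.0 and 101.5 CPM at 1 h, and 80.9, 85.5 and 102.8 CPM at 3 h. In mutants they were 66.7, 80.9 and 93.7 CPM at 0 h, 77.0, 87.5 and 100.9 CPM at 1 h, and 72.6, 77.9 and 96.9 CPM at 3 h. Each of these wide ranges spans a lower male and a higher female set. Without the 2 libraries named above the difference over all times was -0.038 (SE 0.023, adjusted p = 0.419, edgeR). At 3 h it was -0.059 (SE 0.043, adjusted p = 0.758, edgeR) without mutant, 3 h, female replicate 2, and at 1 h 0.0078 (SE 0.036, adjusted p = 0.971, edgeR) without WT, 1 h, male replicate 1.

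Jarid2 had the same mean level in both genotypes, 42.9 ± 2.71 CPM in the 18 WT and 42.9 ± 1.44 CPM in the 18 mutant libraries (SD). The log2 fold change over all times was 0.0010 (SE 0.026, adjusted p = 0.992, edgeR), and its 95% interval allows a change from -3.48% to 3.75%. In WT mice the lowest, median and highest levels were 42.4, 44.1 and 46.7 CPM at 0 h, 38.5, 43.0 and 46.4 CPM at 1 h, and 39.2, 40.5 and 46.6 CPM at 3 h. In mutants they were 41.3, 42.0 and 44.4 CPM at 0 h, 40.7, 42.9 and 45.6 CPM at 1 h, and 41.0, 43.7 and 44.5 CPM at 3 h. At 0 h 5 of 6 mutants lay below the WT median and at 3 h all 6 lay above it, and 4 of 6 mutants at 0 h lay below the lowest WT library, but the log2 differences of -0.060 (SE 0.041) and 0.049 (SE 0.048) had adjusted p of 0.877 and 0.904 by edgeR. With single libraries left out the value at 3 h ran from 0.024 to 0.081.

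**Figure D3:**
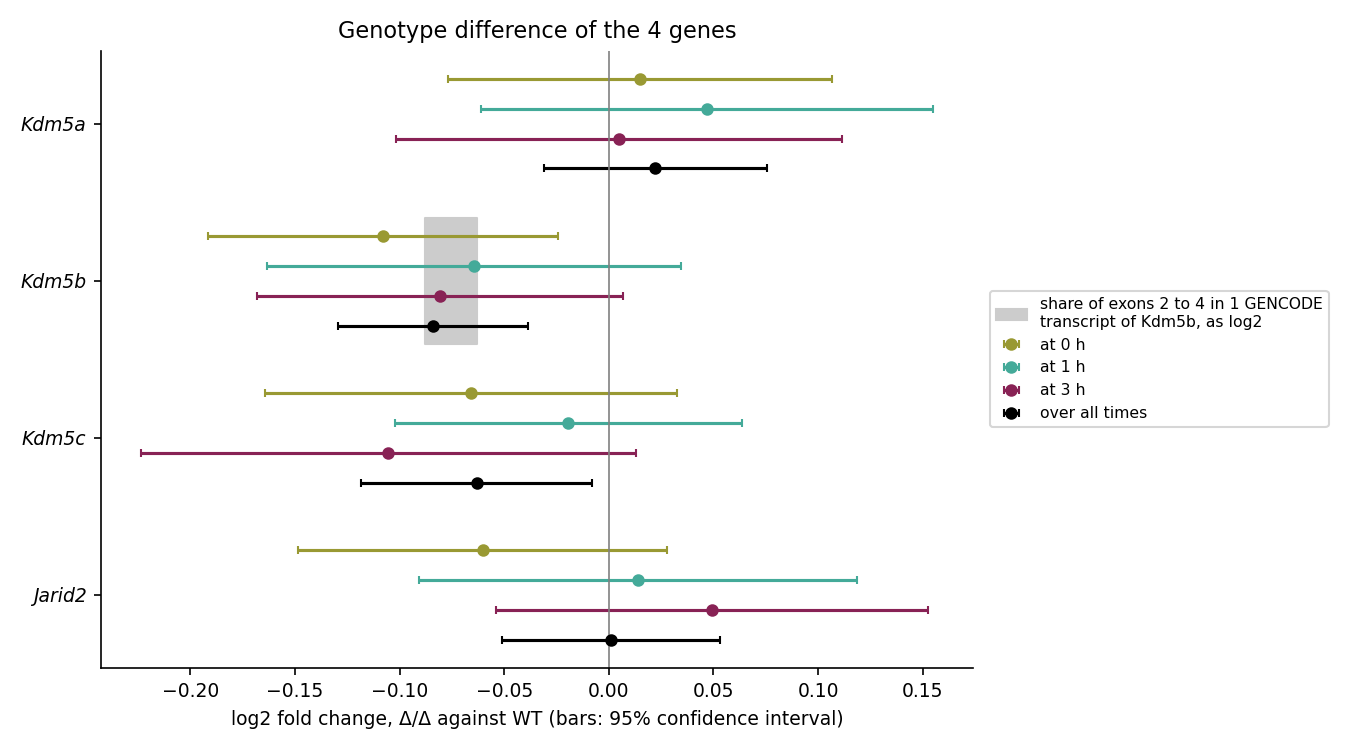
Log2 fold change of each gene in Kdm5bΔ/Δ against WT mice (horizontal axis) at 0, 1 and 3 h (12 libraries each) and over all times (36 libraries), with 95% confidence intervals from edgeR. The grey band spans -0.063 to -0.088, the share of exons 2 to 4 in 1 GENCODE transcript of Kdm5b as a log2 ratio. Over all exon bases of the gene it would be -0.039, outside the band. The interval over all times excludes 0 for Kdm5b and Kdm5c, on the lower side, and spans 0 for Kdm5a and Jarid2.

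The summed level of Kdm5a, Kdm5b and Kdm5c covers the KDM5 genes that both sexes share, in CPM not scaled by length. In mutants its Kdm5b part can hold no reads of the deleted exons. The part of this loss in the differences of the sum was not tested. At 0 h WT mice had 239.0 ± 10.5 CPM and mutants 230.3 ± 16.0, at 1 h 248.5 ± 13.1 and 245.9 ± 10.2, and at 3 h 246.4 ± 12.9 and 235.3 ± 15.2 (SD, n = 6). The mutant mean differed by -3.67%, -1.06% and -4.52%. Without the 2 libraries with contradictory sex-linked transcripts the differences at 1 and 3 h were -2.51% and -5.17%. These SDs hold the sex difference of Kdm5c described further on. In libraries labelled male the sum was 230.9 ± 6.46 CPM in WT against 217.3 ± 7.27 in mutants at 0 h, 238.2 ± 10.4 against 239.3 ± 9.40 at 1 h, and 237.8 ± 1.79 against 223.1 ± 10.8 at 3 h (SD, n = 3), so that the male means at 0 and 3 h differed by more than either SD. Without WT, 1 h, male replicate 1 the 2 remaining WT males at 1 h averaged 242.3 CPM, above the mutant mean, so the direction at 1 h rests on that library. In those labelled female it was 247.2 ± 5.92 against 243.3 ± 8.92, 258.8 ± 1.55 against 252.5 ± 6.48, and 255.0 ± 13.9 against 247.4 ± 3.88 (SD, n = 3). No test was run on the sum. In bulk tissue, fewer cells of a type and less RNA per cell cannot be told apart. Of the tissue markers, those of CA1 neurons and of choroid plexus, a tissue that a dissection can carry along, had lower medians in mutants at each time. The summed CA1 markers had medians of 803.0 CPM in WT against 801.3 in mutants at 0 h, 889.7 against 864.9 at 1 h and 871.2 against 806.2 at 3 h, with overlapping ranges. All 5 choroid plexus markers were detected, and the median of their summed level was 2086 CPM in WT against 191.1 in mutants at 0 h, 1031 against 124.2 at 1 h and 2187 against 1466 at 3 h. The groups overlapped, with ranges of 45.4 to 5776 and 64.9 to 2587 CPM at 0 h, 103.1 to 4514 and 58.1 to 1106 CPM at 1 h, and 42.4 to 7971 and 52.6 to 3631 CPM at 3 h. Other marker lists had higher medians in mutants at each time. The summed striatum markers had medians of 31.8 CPM in WT against 43.5 in mutants at 0 h (ranges 25.5 to 36.01 and 33.4 to 69.1), 29.9 against 34.3 at 1 h (22.9 to 37.7 and 25.5 to 41.9) and 30.0 against 39.8 at 3 h (26.8 to 45.9 and 26.2 to 49.2). Astrocyte medians were 1516 against 1568 CPM at 0 h, 1534 against 1601 at 1 h and 1435 against 1590 at 3 h, dentate granule medians 418.4 against 437.7, 452.3 against 498.8 and 466.4 against 539.8 CPM, and oligodendrocyte medians 6156 against 6521, 6116 against 6185 and 5433 against 6903 CPM, all with overlapping ranges. The part of these markers in the differences of the 4 genes was not tested. All 5 markers each of dentate granule, CA1 and CA3 neurons averaged 1 CPM or more over the 36 libraries, but so did the markers of striatum, thalamus, neocortex and choroid plexus, so this does not single out hippocampus.

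After training, Kdm5c rose by a small amount at 1 h, and the other 3 genes did not pass the test. Over both genotypes, Kdm5c was 9.51% higher at 1 h than at 0 h, with a log2 fold change of 0.131 (SE 0.034, 95% interval 0.063 to 0.199, adjusted p = 0.0400, edgeR). In this comparison 1.16% of 17978 genes were called, 184 higher and 25 lower. The mean of 12 libraries went from 81.3 ± 10.1 CPM at 0 h to 88.9 ± 10.1 CPM at 1 h (SD), and the ranges of 66.7 to 93.7 and 75.5 to 101.5 CPM overlapped widely. The call was kept in 26 of 36 fits with a single library left out (adjusted p from 0.0096 to 0.0860, edgeR). With no term for sex the log2 fold change was 0.130 and the call was lost (adjusted p = 0.418, edgeR).

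At 3 h the Kdm5c difference from 0 h was 0.079 (SE 0.034, adjusted p = 0.218, edgeR), in a comparison where 2.69% of genes were called, 344 higher and 140 lower. Without the 2 libraries whose sex-linked transcripts contradict the label it was 0.104 (adjusted p = 0.0261, edgeR). Kdm5b was 0.082 higher at 1 h (SE 0.028, adjusted p = 0.152, edgeR), or 5.83%, and 0.055 higher at 3 h (SE 0.028, adjusted p = 0.320, edgeR). Without those libraries the 1 h value was 0.101 and was called (adjusted p = 0.0138, edgeR). It was also called without the library labelled WT, 1 h, male replicate 1 alone (0.101, adjusted p = 0.0280, edgeR). Likewise the Kdm5c value at 3 h was called without the library labelled mutant, 3 h, female replicate 2 alone (0.103, adjusted p = 0.0328, edgeR).

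The Kdm5a difference was 0.0019 at 1 h and -0.029 at 3 h, and that of Jarid2 -0.018 and -0.031, each with an SE of 0.032. None of these 4 values reached an unadjusted p of 0.05. With single libraries left out, Kdm5a at 3 h ran from -0.045 to -0.018. Jarid2 ran from -0.029 to -0.0016 at 1 h and from -0.044 to -0.019 at 3 h. Between 3 h and 1 h, 0.256% of genes were called, and the differences of Kdm5a, Kdm5b, Kdm5c and Jarid2 were -0.031, -0.027, -0.052 and -0.013, none of them called. For scale, 8 of 10 immediate early genes, which neurons switch on with activity, were called higher at 1 h, Fosb most clearly with a log2 fold change of 1.36 (SE 0.13, adjusted p = 1.083e-07, edgeR).

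**Figure D4:**
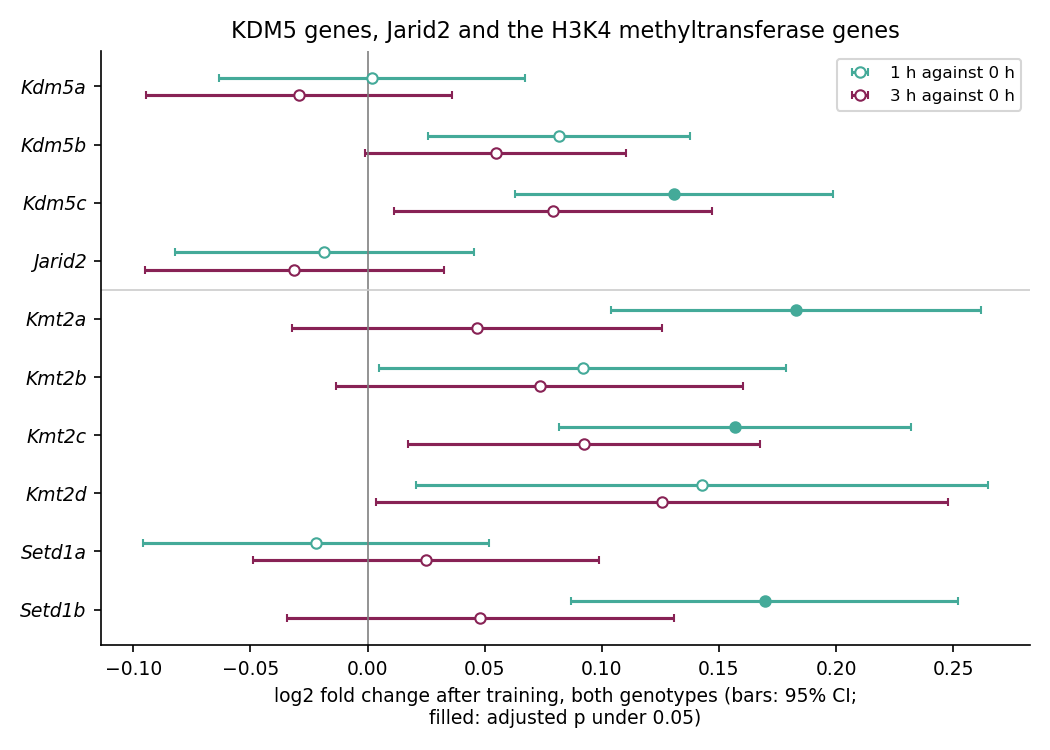
Log2 fold change at 1 h and at 3 h against 0 h over both genotypes (36 libraries, horizontal axis), with 95% confidence intervals from edgeR, for the 4 genes and for the 6 H3K4 methyltransferase genes. Filled points have an adjusted p under 0.05. At 1 h these are Kdm5c, Kmt2a, Kmt2c and Setd1b, and at 3 h there are none.

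Within a genotype no time difference of the 4 genes was called. In WT mice, Kdm5c was 0.113 higher at 1 h (SE 0.044, adjusted p = 0.922, edgeR), then 0.098 higher at 3 h (SE 0.042, adjusted p = 0.588, edgeR). In mutants it was 0.154 higher at 1 h (SE 0.041, adjusted p = 0.139, edgeR) and 0.057 higher at 3 h (SE 0.061, adjusted p = 0.863, edgeR), which became 0.111 (SE 0.044, adjusted p = 0.367, edgeR) without mutant, 3 h, female replicate 2. With single libraries left out, the mutant Kdm5c value at 3 h ran from 0.034 to 0.111. Kdm5b at 1 h was 0.065 higher in WT (SE 0.046) and 0.103 higher in mutants (SE 0.041), with adjusted p of 0.934 and 0.359 by edgeR, and the WT value was 0.099 (adjusted p = 0.688, edgeR) without WT, 1 h, male replicate 1. With single libraries left out, this WT value ran from 0.033 to 0.099. Most of these comparisons called nothing. edgeR called 0% of genes in WT at 1 h against 0 h, at 3 h against 0 h and at 3 h against 1 h, where 947, 1474 and 1294 genes had an unadjusted p under 0.05 and DESeq2 called 5, 75 and 62. In mutants edgeR called 0.311% at 1 h against 0 h, and 0% at 3 h against 0 h and at 3 h against 1 h, where 1481 and 1410 genes had an unadjusted p under 0.05 and DESeq2 called 124 and 81. DESeq2 with sex as covariate called Kdm5c at 1 h in mutants, with a log2 fold change of 0.155 and an adjusted p of 0.0348.

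Whether the response to training itself differed between genotypes was tested as an interaction, and no difference was detected for any of the 4 genes. For the 1 h response the genotype difference was 0.029 for Kdm5a, 0.041 for Kdm5b, 0.043 for Kdm5c and 0.071 for Jarid2, with SE from 0.058 to 0.065 and an adjusted p of 0.9989 by edgeR for each. For the 3 h response it was -0.013, 0.024, -0.042 and 0.107, with SE from 0.052 to 0.075 and an adjusted p of 0.9999 by edgeR for each. For the 1 h response the 95% intervals run from -0.105 to 0.163 for Kdm5a, -0.081 to 0.163 for Kdm5b, -0.076 to 0.162 for Kdm5c and -0.057 to 0.198 for Jarid2. edgeR called 0% of genes in both interactions. Unadjusted p was under 0.05 for 687 and 274 genes, and DESeq2 called 2 and 0.

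The clearest difference within the 4 genes was the sex difference of Kdm5c. In libraries labelled female Kdm5c averaged 93.6 ± 6.47 CPM and in those labelled male 77.0 ± 5.28 CPM (SD, n = 18 each). The log2 fold change, female against male with genotype and time in the model, was 0.282 (SE 0.027, 95% interval 0.227 to 0.338, adjusted p = 2.473e-08, edgeR), or 21.6% higher. It held the second smallest p of the genes tested, in a comparison where 0.0834% of 17978 genes were called, 10 higher and 5 lower in females. Every female-labelled library was above every male-labelled one in 5 of the 6 groups of genotype and time, the exception being the mutants at 3 h. Leaving out any single library kept the call, in 36 of 36 fits.

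Kdm5a, Kdm5b and Jarid2 showed no such difference. Their log2 values were 0.015 (SE 0.026), 0.039 (SE 0.023) and 0.022 (SE 0.026), with adjusted p of 0.991, 0.959 and 0.991 by edgeR. The genotype difference did not depend detectably on sex, with interactions of 0.022, 0.010, 0.035 and 0.0059 for Kdm5a, Kdm5b, Kdm5c and Jarid2 (SE from 0.046 to 0.055, adjusted p of at least 0.996 by edgeR). edgeR called 0% of 18186 genes there, with 665 at an unadjusted p under 0.05, and DESeq2 called 4.

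The 2 libraries with contradictory sex-linked transcripts also stood out in Kdm5c, on the side of their transcripts and not of their labels. The library labelled WT, 1 h, male replicate 1 had no Kdm5d reads and 86.9 CPM of Kdm5c, and the library labelled mutant, 3 h, female replicate 2 had 33.2 CPM of Kdm5d and 76.2 CPM of Kdm5c. Among the others, the 17 libraries labelled male ran from 66.7 to 81.8 CPM of Kdm5c and the 17 labelled female from 86.5 to 102.8 CPM, with no overlap. Without the 2 libraries the log2 fold change was 0.306 (SE 0.023, adjusted p = 7.669e-12, edgeR).

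**Figure D5:**
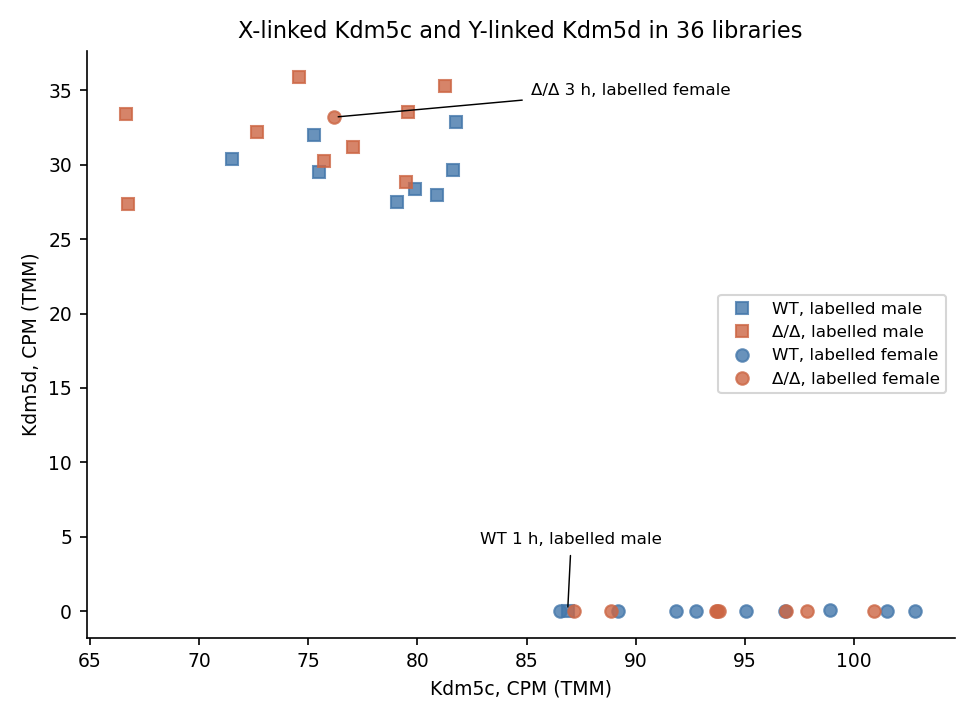
TMM-scaled CPM of X-linked Kdm5c (horizontal axis) against Y-linked Kdm5d (vertical axis) in the 36 libraries, by genotype and labelled sex. Libraries with Kdm5d reads in the male range lie between 66.7 and 81.8 CPM of Kdm5c and the others between 86.5 and 102.8 CPM, and the 2 named libraries fall in the set opposite to their label.

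Kdm5d, the Y-linked KDM5 gene, followed the labels in the remaining libraries. In the 17 other male-labelled libraries it averaged 31.0 ± 2.64 CPM (SD), and in the 17 other female-labelled ones it did not exceed 0.0667 CPM. At 0 h WT males averaged 30.2 ± 1.82 CPM and mutant males 32.2 ± 4.38, and at 3 h 30.2 ± 2.49 and 32.0 ± 1.64 (SD, n = 3), differences within the SD of at least 1 of the groups compared. At 1 h it averaged 31.8 ± 3.26 CPM in mutants, and the 2 remaining WT males had 27.5 and 29.5 CPM. The mutant mean of Kdm5d was thus above the WT mean at 0 and 3 h and above both WT values at 1 h, and no test by genotype was run on it. Per kb of exon, Kdm5c and Kdm5d together came to 13.7 ± 0.728 CPM per kb in males, beside 13.7 ± 0.713 for females, where nearly all of it is Kdm5c (SD, n = 17 each). Per kb of coding length the sums were 23.1 ± 1.17 and 20.3 ± 1.06, so whether the male sum equals the female level depended on the length used.

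The genes that act with or against KDM5 proteins were described from lists, beside the median of all genes tested. The writers of the same mark, the 6 H3K4 methyltransferase genes, were all above 0 by genotype over all times, with log2 values from 0.022 to 0.087 and a median of 0.036 against -0.001 for all genes, but 0 of 6 was called by edgeR, beside 1.35% of all genes, and 0 of 6 had an unadjusted p under 0.05, beside 2774 of 17978 genes. At 1 h after training 3 of 6 were called higher, beside 1.16% of all genes called in that comparison, with a list median of 0.150 against -0.0085 for all genes. Kmt2a rose by 0.183 (SE 0.039, adjusted p = 0.0110, edgeR), Setd1b by 0.170 (SE 0.041, adjusted p = 0.0261, edgeR) and Kmt2c by 0.157 (SE 0.037, adjusted p = 0.0232, edgeR). The same 3 genes had log2 values of 0.206, 0.195 and 0.168 without the 2 libraries named above, all called by edgeR. With single libraries left out, Kmt2a was called in 36, Kmt2c in 35 and Setd1b in 33 of 36 fits. At 3 h 0 of 6 was called, beside 2.69% of all genes, 2 of 6 had an unadjusted p under 0.05, beside 2918 of 17978 genes, and the median was 0.061 against -0.0066 for all genes.

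The counts by genotype that follow stand beside 1.35% of all genes called, a share at which lists of this size would hold few or no calls. Of 13 shared and specific subunits of the methyltransferase complexes, 0 was called by genotype, with values from -0.044 to 0.037. Kdm6a, the X-linked H3K27 demethylase of these complexes, which also escapes X inactivation, was called higher in females (0.441, SE 0.049, adjusted p = 4.047e-07, edgeR). Of 8 genes of the H3K4me1/2 demethylases and their CoREST complex 0 was called by genotype. The smallest p values were those of Hmg20b, a DNA-binding subunit (-0.083, SE 0.040, adjusted p = 0.309, edgeR), and Rcor1, the CoREST scaffold (0.046, SE 0.031, adjusted p = 0.518, edgeR). Of 23 Sin3, histone deacetylase and NuRD genes, co-repressors that KDM5 proteins bind, 22 were tested and 0 was called by genotype. At 3 h 1 of 22 was called, beside 2.69% of all genes. This was Sin3b, a Sin3 scaffold, which was higher (0.128, SE 0.034, adjusted p = 0.0322, edgeR), and in 26 of 36 fits without 1 library.

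PRC2, the complex of JARID2, held the only gene of these lists called by genotype. Epop, a PRC2-associated protein, fell by 0.284 on the log2 scale in mutants over all times (SE 0.069, adjusted p = 0.0256, edgeR), and it was called in all 36 fits without 1 library. The other 8 subunits were not called, and the list median was -0.018. At 1 h 1 of 9 PRC2 genes was called, beside 1.16% of all genes, and the list median was -0.010 against -0.0085 for all genes. Aebp2, a PRC2 subunit found in the JARID2 form of the complex, rose by 0.097 at 1 h (SE 0.025, adjusted p = 0.0425, edgeR), a call kept in 24 of 36 fits without 1 library.

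The 4 genes varied with different partners across libraries. Pearson's r of log2 CPM between members was 0.334 for Kdm5a and Kdm5b, 0.338 for Kdm5b and Kdm5c, 0.072 for Kdm5a and Kdm5c, and from -0.097 to 0.026 for Jarid2 with each of the others, over 36 libraries that share sex, time and genotype differences. A negative relation of Kdm5b to Kdm5a or Kdm5c was not seen. Because these r values mix the group differences, they cannot show whether the related genes rise where Kdm5b is mutated. Of the 17334 other named genes, those most like Kdm5a were Ranbp2 (r = 0.793), Xrn1 (0.753) and Map3k2 (0.748). Those most like Kdm5b were Setd7 (0.826), which encodes a lysine methyltransferase, Selenoi (0.759) and Peg13 (0.746). Kdm5c was most like Xist (0.871), the RNA of X inactivation, Gm2223 (0.843) and X-linked Eif2s3x (0.831). The highest values for Jarid2 were lower, with Gkn3 (0.612), Sgo2a (0.590) and Srpx (0.581). The genes named change in part with the measure. By Spearman's rank correlation Kdm6a came first for Kdm5c (0.771) and Xist had rank 5. On that measure Selenoi and Peg13 had ranks 5 and 6 for Kdm5b, and Sgo2a rank 9 for Jarid2. These are descriptions over libraries that also share depth and dissection.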

How the data were processed

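RNA of dorsal hippocampus was sequenced in 36 libraries. The authors deposited raw counts per gene, which they made with STAR 2.7.8a on mm10 and featureCounts 2.0.1. Annotation, strand setting and multi-mapping are not given in the sources used here. The labels and the study's methods differ on single-end or paired-end sequencing, so whether a count is a read or a fragment is not known. The other 8 of the 44 samples were not analysed here. Of 27179 genes, 25275 were matched to a symbol by Entrez ID.

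The main test was edgeR 4.0.16 (R 4.3.3), quasi-likelihood F test with robust fits and TMM factors, with genes kept by a minimum count of 10 and p values adjusted over all genes tested (Benjamini-Hochberg, threshold 0.05). Sex as labelled was a covariate. Genotype differences at 1 time used 12 libraries, interactions with time 24, and comparisons over all times, over both genotypes or by sex 36. SE and 95% intervals come from the F statistic and its t quantile. The code was tested on simulated data. DESeq2 1.42.0, RLE factors, other filters, no sex term, a replicate block, a fit of all libraries and libraries left out were alternatives. For likeness (Pearson's r), log2 CPM had 2 as prior count.

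The 4 genes are named in full, with the genes of each list called in a comparison used or else the 2 with the smallest p by genotype, the 3 genes most like each member, Kdm5d and Mgat4e. Members and lists were chosen with earlier results of these data known. Sequences and lengths come from GENCODE and RefSeq tables on GRCm38, the mm10 build. p values measure the spread between mice, 1 library each.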

Additional observations from a re-analysis of the deposited data

Results flagged for a closer look

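In 24 groups of 6 libraries, 1 per member, genotype and time, 1 library stood far from the others in its group. Mutant, 1 h, male replicate 1 had 80.3 CPM of Kdm5a, and the next library of its group 71.3 CPM, a gap of 0.715 of the group's range, above Dixon's 95% critical value for 6 libraries. Chance marks about 1 in 20 such groups. Without this library the Kdm5a difference by genotype at 1 h was 0.0090 on the log2 scale.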

How the results depend on the processing

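Over the 4 genes and 17 comparisons, other settings gave 564 values, of which 548 kept direction and side of the threshold, 7 reversed, 6 were no longer called and 3 became called. All 7 reversals came without the 2 libraries whose sex-linked transcripts contradict the label, and none was of a called value. They were Kdm5c by genotype at 1 h (0.0078), Kdm5a by genotype at 3 h (-0.0119), Kdm5a in WT at 1 h against 0 h (0.0165), Kdm5c in WT at 3 h against 1 h (0.0111), the genotype difference in the 3 h response of Kdm5b (-0.0016) and Kdm5c (0.0059), and the sex dependence of Jarid2 (-0.0118). The same setting moved uncalled values given in the report by over 1.5 times, among them, by genotype at 1 h Jarid2 (0.0388); by genotype over all times Kdm5a (0.0107) and Jarid2 (0.0054); at 1 h over both genotypes Kdm5a (0.0160); by sex Kdm5a (0.0023) and Kdm5b (0.0200); the sex dependence of Kdm5c (0.0574); the genotype difference in the response of Kdm5a at 1 h (0.0091) and 3 h (-0.0301); at 3 h against 1 h over both genotypes Kdm5a (-0.0536), Kdm5b (-0.0599) and Kdm5c (-0.0192); and the genotype difference in the 1 h response of Kdm5b (0.0106) and Kdm5c (0.0726). The same setting called Kdm5b at 1 h (0.1007) and Kdm5c at 3 h (0.1044) over both genotypes. Kdm5b by genotype over all times was not called with no low-count filter (-0.0821, adjusted p = 0.0780, edgeR), with at least 10 counts in every library (-0.0819, adjusted p = 0.0517, edgeR) or with no sex covariate (-0.0816, adjusted p = 0.0657, edgeR), and DESeq2 called it (-0.0848, adjusted p = 0.0215). Kdm5c at 1 h over both genotypes was not called without a sex term by edgeR (0.1296) or DESeq2 (0.1310, adjusted p = 0.350), while DESeq2 with sex called it within mutants (0.1551). The cause of these shifts was not tested.

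Same-numbered libraries did not deviate together: over 54 pairs r ran from -0.254 to 0.324 (median 0.077). With the replicate number as a block, Kdm5b by genotype over all times was -0.0836 (adjusted p = 0.0523, edgeR), and no other call of the members changed.

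With single libraries left out, 1064 of 1152 values kept direction and call, 46 reversed, 40 were no longer called and 2 became called. Kdm5b by genotype over all times ran from -0.0932 to -0.0741 and kept its call only without WT 0 h M1, mutant 0 h M1 or F2, WT 1 h M1, mutant 1 h M1 or mutant 3 h F2. Of the methyltransferase genes at 1 h, Kmt2c lost its call without mutant 0 h M1 and Setd1b without WT 0 h M3, WT 1 h M3 or WT 1 h F3. Kdm5c over both genotypes ran from 0.1213 to 0.1459 at 1 h, losing the call without WT 0 h M3 or F1, mutant 0 h M1, M3, F1 or F3, WT 1 h F3, or mutant 1 h M3, F2 or F3, and from 0.0668 to 0.1030 at 3 h. Kdm5b at 1 h over both genotypes ran from 0.0707 to 0.1008. Uncalled values that crossed 0 were, for Kdm5a, -0.0059 to 0.0419 (genotype, 0 h), -0.0254 to 0.0230 (genotype, 3 h), -0.0380 to 0.0165 (WT, 1 h against 0 h), -0.0525 to 0.0005 (WT, 3 h against 0 h), -0.0408 to 0.0150 (WT, 3 h against 1 h), -0.0241 to 0.0325 (mutant, 1 h against 0 h) and -0.0153 to 0.0165 (both, 1 h against 0 h). For Kdm5b they were -0.0553 to 0.0062 (WT, 3 h against 1 h), and for Kdm5c -0.0342 to 0.0146 (WT, 3 h against 1 h) and -0.0375 to 0.0078 (genotype, 1 h). For Jarid2 they were -0.0117 to 0.0389 (genotype, 1 h), -0.0065 to 0.0108 (genotype, all times), -0.0005 to 0.0366 (mutant, 1 h against 0 h) and -0.0105 to 0.0197 (mutant, 3 h against 1 h).

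By genotype over all times 243 were called, and 192 to 507 in other edgeR fits, 500 to 556 by DESeq2 and 168 to 373 with a library left out. Over both genotypes the 209 at 1 h became 203 to 446, 417 to 423 and 134 to 397, those at 3 h became 411 to 691, 818 to 827 and 271 to 726, and the 46 at 3 h against 1 h became 39 to 341, 192 to 197 and 15 to 192. In mutants at 1 h 55 became 38 to 66, 363 to 402 and 26 to 86. By genotype at 1 h 0 became 0 to 43, 98 to 110 and 0 to 43, and in mutants at 3 h against 1 h 0 became 0 to 20, 70 to 81 and 0 to 20. The 2 by genotype at 3 h became 0 to 17, 42 to 50 and 0 to 17, and the 15 by sex 9 to 16, 16 and 15 to 17. The median of all genes moved by at most 0.0117 (log2).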
